A study of Mus musculus with 10 samples.

Results

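The genes described here encode nuclear subunits of respiratory complex I in mouse retina. They were chosen by name alone, as the protein-coding genes whose symbol is Nduf followed by the letter a, b, c, s or v and a digit, with the assembly factors (Ndufaf) left out. Nuclear subunit genes with a symbol of another form were not examined. This gave 37 of the 35275 genes in the count table, and all 37 passed the filter on low counts that left 17435 genes for testing. RNA was sequenced from retinas of C57BL/6 mice aged 10 to 12 weeks, in 5 vehicle libraries and 5 libraries of animals on vigabatrin, 140 mg/kg/day over 11 days, by a subcutaneous osmotic pump. The controls are untreated by title but vehicle by treatment label, and the labels give no other difference of strain, age or tissue between the groups. Vigabatrin, used against seizures, blocks the enzyme that degrades GABA, and it can cost patients part of their visual field. Each library is called by its group and its title number. Whether every library is from its own animal is not stated in the labels, and the p-values therefore cover only the spread among these libraries, which may be technical.

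Complex I (NADH:ubiquinone oxidoreductase) is the entry point of the mitochondrial respiratory chain. Its N module, at the tip of the arm that projects into the matrix, oxidises NADH on a flavin; iron-sulphur clusters pass the electrons down to the Q module, where ubiquinone is reduced, and the membrane arm pumps protons. The catalytic core is made of nuclear subunits in the matrix arm and of subunits encoded by mitochondrial DNA in the membrane arm, and accessory subunits surround both. Photoreceptors pack their inner segments with mitochondria, and the retina is among the tissues with the highest energy use.

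Of the 37 genes, 35 were placed in the complex from textbook knowledge: 10 in the N module, 6 in the Q module, 9 accessory genes of the proximal membrane arm and 10 of the distal membrane arm. The other two, Ndufa4 and Ndufa4l2, carry the name only. The NDUFA4 protein is now counted as a subunit of complex IV, and NDUFA4L2 is its hypoxia-inducible paralogue. They are given separately below.

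The libraries held 36056135 to 54052502 counts. Summed markers of rods, the main cell type of the mouse retina, were at 55138 to 61835 CPM (counts scaled to a common library size with TMM) over the 10 libraries, and skeletal muscle markers, a check for eye muscle rich in mitochondria, were at 4.11 to 6.23 CPM. Lens markers set 4 libraries apart: vehicle 835 held 21778 CPM, vehicle 1582 14667, vigabatrin 2344 22398 and vigabatrin 2429 19418, against 35.3 to 1097 CPM in the other 6. Markers of other neighbouring tissues had lower means in the vigabatrin libraries, with 0 called: pigment epithelium in 10 of 11 genes (median log2 fold change -1.06, 4 with an unadjusted p under 0.05), cornea in 4 of 4 (-1.90, 3 under 0.05) and blood in 5 of 5 (-0.58, 0 under 0.05). Summed pigment epithelium markers were at 31.2 to 1691 CPM in vehicle, highest in vehicle 835, and at 15.7 to 752 CPM in the drug group. In bulk tissue, fewer cells of a type and less RNA per cell cannot be told apart.

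Promoter windows of RefSeq (build GRCm38.p6, the build of mm10), reaching from 250 bases before to 50 bases after the start site, were matched by symbol for 32 of the 37 genes, in 34 windows. Genes of the respiratory chain are known targets of the transcription factors NRF1 (nuclear respiratory factor 1) and YY1, so the letters of both binding sites were searched on both strands. The 10 NRF1 letters, capitalised in the sites printed here, were in 8 of the 34 windows (23.5%) and in 6.61% of 19311 windows of protein-coding genes. The windows of 7 genes held them (Ndufa5 in overlapping windows). For each gene, 1 site is printed in its direction with up to 10 bases on either side and the matched letters in capitals. The capitals are alike because the search asked for these letters. They lie at chr17:56717692-56717721 (plus strand) for Ndufa11 and, on the minus strand, at chr6:24527697-24527726 for Ndufa5, chr15:82354249-82354278 for Ndufa6, chr2:36049349-36049378 for Ndufa8, chr16:37654371-37654400 for Ndufb4, chr4:123718265-123718294 for Ndufs5 and chr13:73328479-73328508 for Ndufs6.
Ndufa11: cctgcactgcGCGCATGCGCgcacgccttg
Ndufa5: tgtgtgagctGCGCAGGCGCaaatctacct
Ndufa6: ccgtggcaccGCGCGTGCGCacgctgaagg
Ndufa8: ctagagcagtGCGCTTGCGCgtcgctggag
Ndufb4: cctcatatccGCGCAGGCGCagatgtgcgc
Ndufs5: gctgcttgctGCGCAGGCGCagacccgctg
Ndufs6: cgactgctgtGCGCCTGCGCcggcacttgg

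The 10 YY1 letters, also in capitals, were in 4 of the 34 windows (11.8%) and in 241 of all 19311. In each of the 4 genes the match lay 25 to 36 bases into the transcript, on the gene's own strand, and its ATG was a start codon annotated in GENCODE M21. The sites lie at chr6:126849096-126849125 (Ndufa9), chr13:114388045-114388069 (Ndufs4) and chr13:73328433-73328459 (Ndufs6) on the minus strand and at chr10:80249463-80249492 (Ndufs7) on the plus strand; the stretches for Ndufs4 and Ndufs6 end where the window ends.
Ndufa9: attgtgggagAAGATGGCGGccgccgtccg
Ndufs4: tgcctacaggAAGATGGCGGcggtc
Ndufs6: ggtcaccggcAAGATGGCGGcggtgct
Ndufs7: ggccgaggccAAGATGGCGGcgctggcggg

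The ETS letters CCGGAAGT, the core of the site of GABP, another regulator of these genes, were in 1 window (2.94%, against 5.25% of all), and the letters TCAAGGTCA of the oestrogen-related receptors were in 0 (0.331% of all). Also searched were the letters GGGCGG, in 44.1% of the members' windows (47.7% of all). The letters CCAAT were in 29.4% (37.8% of all) and TATAAA in 14.7% (12.1% of all). Median GC content was 59% in the members' windows and 57% in all windows. The median count of the letter pair CG, which the NRF1 letters contain, was 19.5 and 14. The part of base composition in the shares of windows with a motif was not tested. As the longest stretch around a site, the 234 bases before the first annotated exon of Ndufs5, which had the second smallest p among the members, are printed with the NRF1 letters in capitals (chr4:123718203-123718436, minus strand).
Ndufs5: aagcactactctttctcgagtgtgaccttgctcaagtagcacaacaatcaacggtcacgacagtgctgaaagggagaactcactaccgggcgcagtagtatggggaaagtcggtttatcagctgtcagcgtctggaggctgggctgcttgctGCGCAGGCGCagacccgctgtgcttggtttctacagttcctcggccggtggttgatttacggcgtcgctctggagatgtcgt

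Vehicle retina expressed all 37 genes of the set, over a wide range of levels. Per kilobase of the deposited gene length, the 35 placed genes had a median of 45.7 CPM per kb, the lowest at 5.83, and 34 of them lay above the median of all tested genes, 5.87 CPM per kb. Among the core subunits Ndufv1, the flavin-bearing subunit that takes electrons from NADH, was at 95.6 ± 1.65 CPM per kb (SD, n = 5). Lower levels were measured for 5 others: Ndufs7 was at 69.9 ± 5.18, Ndufs3 at 56.1 ± 2.82, Ndufv2 at 35.1 ± 3.10, Ndufs8 at 33.2 ± 2.04 and Ndufs1, which carries most of the clusters of the N module, at 31.3 ± 0.268 CPM per kb. Among the last 3 of these, Ndufv2 and Ndufs8, and Ndufs8 and Ndufs1, do not differ beyond their SDs. The deposited lengths bear on these levels: 8 members had a deposited length over 1.5 times the median length of their protein-coding transcripts in GENCODE M21. For Ndufb7, an accessory subunit of the distal arm, the level was 10.6 CPM per kb by the deposited length and 75.4 by the transcript length, and for Ndufb8 it was 16.7 and 25.3. By transcript length the median of the 35 genes was 56.1 CPM per kb.

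**Figure D1:**
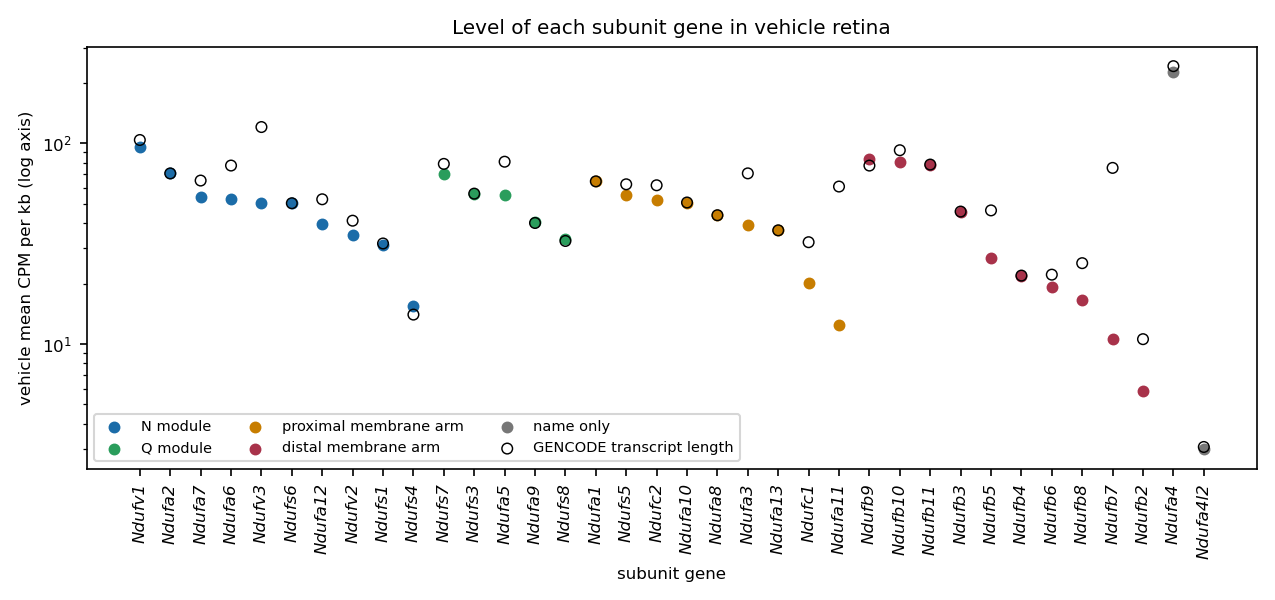
Mean level of each gene in the 5 vehicle libraries, in CPM per kb on a log axis, grouped by module; filled points use the deposited gene length and open circles the median GENCODE transcript length. Ndufa4 is at 226 and Ndufa4l2 at 2.99 CPM per kb, and the lowest placed gene is at 5.83 by the deposited length; 36 of the 37 genes are drawn.

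The comparison of vigabatrin with vehicle asked which of these transcripts differed after the drug. No gene of the set passed the test: 0 of 37 had an adjusted p under 0.05, where 1 of the 17435 genes did (0.00574%). Most means were lower by a small amount, with 32 of 37 fitted values below 0 (50.6% of all genes) and a median log2 fold change of -0.06 (all genes, -0.001). At an unadjusted p under 0.05 there were 2 lower genes and 0 higher, where 3.69% of all genes were lower and 3.68% higher at that p; 2 of 37 is 5.41% and is near the background. For 0 of the 37 did all 5 vigabatrin libraries lie below all 5 vehicle libraries, which held for 0.631% of all genes, and for 0 did they all lie above (0.849% of all genes). The fitted changes of the 35 placed genes ran from -10.6% to 2.78%, with a median of -3.81%, and their standard errors from 0.03 to 0.11 on the log2 scale, with a median of 0.05. DESeq2 and limma-voom also called 0 of the 37, where they called 85 and 0 genes over the whole table.

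**Figure D2:**
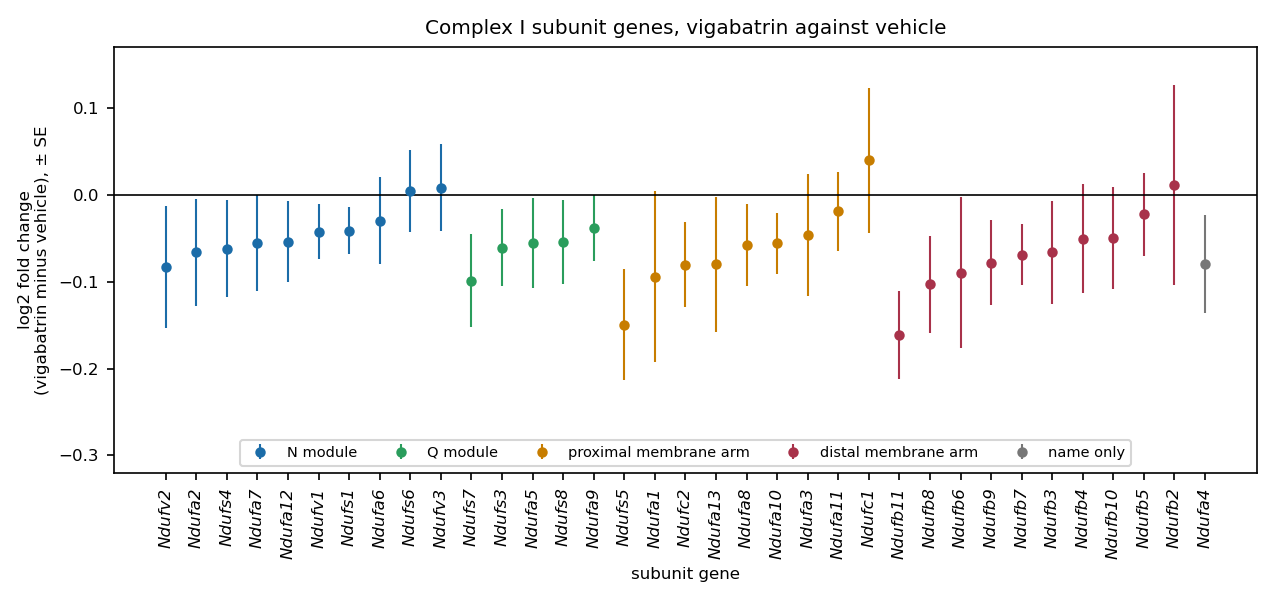
Log2 fold change of vigabatrin over vehicle with its standard error for 35 of the 37 genes, coloured by module and sorted within it; Ndufa4l2, with a standard error of 0.43, is among those not drawn. Most points of each module lie below 0, and the lowest are Ndufb11 at -0.16 and Ndufs5 at -0.15.

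In the N module, 8 of 10 genes had lower means, with a median log2 fold change of -0.05. Ndufv1 measured 160, 155, 159, 157 and 162 CPM in vehicle 832, 835, 1580, 1582 and 2345 and 155, 162, 153, 152 and 149 CPM in vigabatrin 2344, 2347, 2349, 2428 and 2429. The groups overlapped, with vigabatrin 2347 above 4 of the vehicle libraries (log2 fold change -0.04, SE 0.03, edgeR quasi-likelihood adjusted p = 0.809). Ndufs1 had the smallest standard error of the members and was at 83.2 ± 0.712 CPM in vehicle and 80.8 ± 1.74 in the drug group (SD, n = 5 each); the fitted log2 change was -0.04 (SE 0.03, edgeR adjusted p = 0.79). Ndufv2, which carries an iron-sulphur cluster beside the flavin, measured 54.4, 59.3, 51.5, 57.5 and 47.3 CPM in the vehicle libraries, in the same order, and 48.8, 58.0, 50.5, 48.1 and 49.5 after vigabatrin. Here vehicle 2345 was below every vigabatrin library and vigabatrin 2347 above all but 1 vehicle library (-0.08, SE 0.07, adjusted p = 0.843). The 2 genes with fitted values above 0 were Ndufs6 and Ndufv3.

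In the Q module all 6 genes had lower means, with a median of -0.06. Ndufs7, which holds the last cluster before ubiquinone and carries the YY1 letters at its start codon, measured 65.9, 71.2, 73.6, 71.7 and 61.2 CPM in vehicle and 62.04, 68.1, 62.6, 65.8 and 62.3 CPM in the drug group. Vehicle 2345 was the lowest of the 10 (-0.10, SE 0.05, adjusted p = 0.731). Ndufs3 had -0.06 (SE 0.04, adjusted p = 0.805) and Ndufs8, a carrier of further clusters, -0.05 (SE 0.05, adjusted p = 0.858). All 7 core subunits of both modules were on the lower side, with a median of -0.06.

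The accessory genes of the membrane arm held the smallest p values. In the distal arm 9 of 10 had lower means, with a median of -0.07. Ndufb11, an accessory subunit of this arm (chrX:20615326-20617619 in mm10, minus strand), measured 67.9, 71.1, 73.1, 76.5 and 67.0 CPM in vehicle and 68.8, 66.2, 59.9, 62.9 and 60.3 CPM in the drug group. All vigabatrin libraries other than 2344 lay below all vehicle libraries, and 2344 lay above vehicle 832 and 2345 (log2 fold change -0.16, SE 0.05, unadjusted p = 0.00891, adjusted p = 0.528). Ndufb8 and Ndufb7 had -0.10 (SE 0.06, adjusted p = 0.733) and -0.07 (SE 0.04, adjusted p = 0.711). In the annotation, exons of Ndufb11 overlap those of Rbm10 by 117 bases on the other strand, and Ndufb8 shares 134 with Gm20538 on its own strand. In all, exons of 16 members overlap another gene. The strand setting of the counting is not given, so how reads in the shared bases were assigned is not known.

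In the proximal arm 8 of 9 genes had lower means, with a median of -0.06. Ndufs5, a small accessory subunit on the intermembrane side, measured 36.9, 36.7, 39.2, 38.7 and 35.6 CPM in vehicle and 32.5, 39.6, 31.8, 31.8 and 33.05 CPM in the drug group. Without exception the vigabatrin libraries other than 2347 lay below the vehicle libraries, while 2347 was the highest of the 10 (-0.15, SE 0.06, unadjusted p = 0.0388, adjusted p = 0.653). Ndufc2 and Ndufa10 had -0.08 (SE 0.05, adjusted p = 0.763) and -0.06 (SE 0.03, adjusted p = 0.773), and the fitted value of Ndufc1 was above 0. The 10 genes that hold the NRF1 or YY1 letters had log2 fold changes of -0.15 to 0.004, with a median of -0.05, and the 22 with neither had -0.16 to 0.04, with a median of -0.06.

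**Figure D3:**
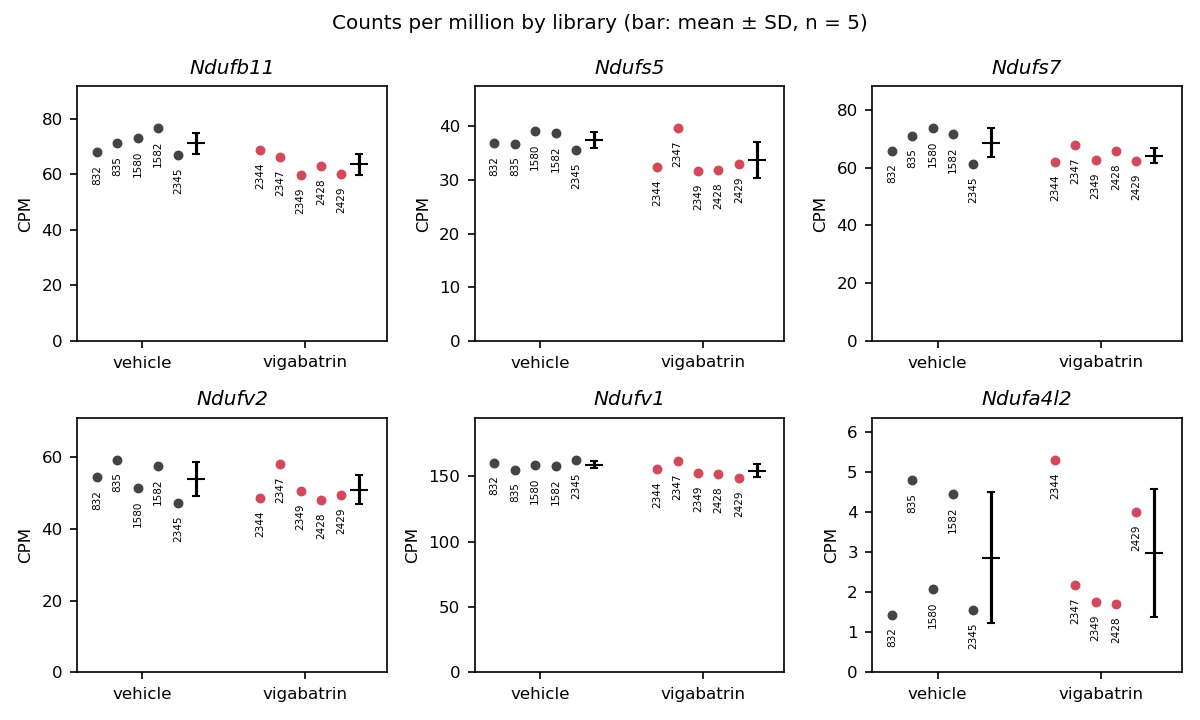
CPM of 6 genes in each library, labelled by title number, with the group mean ± SD beside the points; each axis starts at 0. The groups overlap for all 6, vigabatrin 2347 sits among or above the vehicle libraries for Ndufs5, Ndufv2 and Ndufv1, and Ndufa4l2 is high in the 4 lens-rich libraries of both groups.

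For most of the subunit genes, 1 library of each group lay on the side of the other group. Relative to each gene's vehicle mean, the median deviation of the 35 placed genes in log2 CPM was, for vehicle 832, 835, 1580, 1582 and 2345 in turn, -0.005, -0.009, 0.04, 0.07 and -0.08. For vigabatrin 2344, 2347, 2349, 2428 and 2429 it was -0.06, 0.04, -0.10, -0.07 and -0.08. Vehicle 2345 thus lay among the vigabatrin libraries, and vigabatrin 2347 among the vehicle ones. These were also the libraries with the fewest counts, 36056135 and 39766262, against 45336604 to 54052502 in the others. The part of sequencing depth was not tested. Vehicle 2345 was below the mean of the other 4 vehicle libraries for 31 of 35 genes, the lowest vehicle library for 22, and below the vigabatrin mean for 22. Vigabatrin 2347 was above the mean of the other 4 vigabatrin libraries for 34 of 35, the highest of its group for 29, and above the vehicle mean for 25. The genes share their libraries, so they are not independent measurements of the treatment. Neither library was among the lens-rich ones, and their summed rod markers, 60745 and 60512 CPM, were within the range of the other 4 vehicle libraries. Within its own group, vigabatrin 2347 had the highest rod markers, with 55138 to 59074 CPM in the other vigabatrin libraries. Its summed level of the subunits encoded by mitochondrial DNA, 13458 CPM, was the highest of the 10 libraries. The part of tissue make-up in these libraries was not tested.

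**Figure D4:**
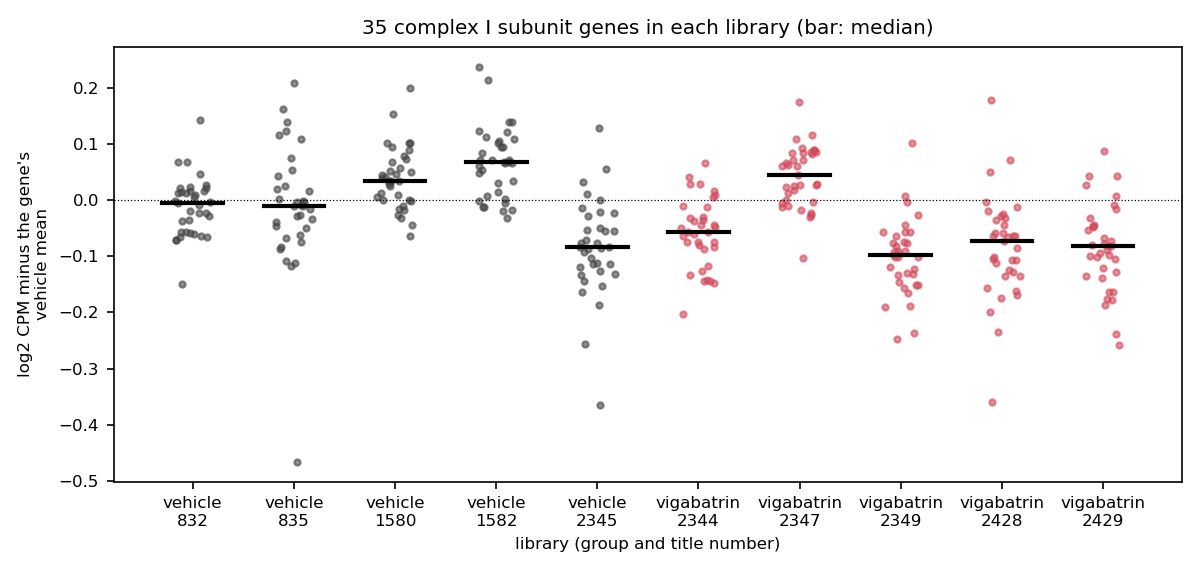
Each point is 1 of the 35 placed genes in 1 library, as log2 CPM minus the gene's vehicle mean, with a bar at the library's median. The bars of vehicle 2345 (-0.08) and vigabatrin 2347 (0.04) lie on the side of the other group.

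Leaving out either of these libraries widened the difference. This follows from the choice, since they were picked for lying on the side of the other group, and nothing is drawn from it. Without vehicle 2345 the median log2 fold change of the 37 genes was -0.08. Of these genes, 36 were lower (51.3% of all genes) and 5 had an unadjusted p under 0.05. Without vigabatrin 2347 the median was also -0.08, with 34 lower (49.8% of all genes) and 7 under 0.05. In neither case did a member pass the threshold, although 39 genes did over the whole table without vehicle 2345. The number under 0.05 was 1 without vehicle 1580 or 1582 or without vigabatrin 2344, 2349, 2428 or 2429, 2 without vehicle 832 and 3 without vehicle 835. The share of all genes under 0.05 was not counted in these fits, so these numbers have no background beside them.

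The direction depended on which vehicle libraries stood for the control. The titles number 4 vehicle libraries from 832 to 1582, whereas vehicle 2345 and all 5 vigabatrin libraries are numbered from 2344 to 2429. In a fit with a term for this range, vehicle 2345 alone serves as control for the vigabatrin libraries. The median of the 37 genes was then 0.03 (all genes, 0.0096), with 13 lower and 24 higher. Over all genes 46.9% were lower. Among the placed genes Ndufc1 and Ndufa1 were highest, with log2 fold changes of 0.30 and 0.285. The median turned in the N module (0.03, 2 of 10 lower) and in the proximal (0.04, 2 of 9) and distal arms (0.02, 4 of 10), while the Q module kept 5 of 6 genes lower (-0.02). The labels do not say what the numbers stand for, and apart from this 1 library the range and the treatment cannot be told apart.

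**Figure D5:**
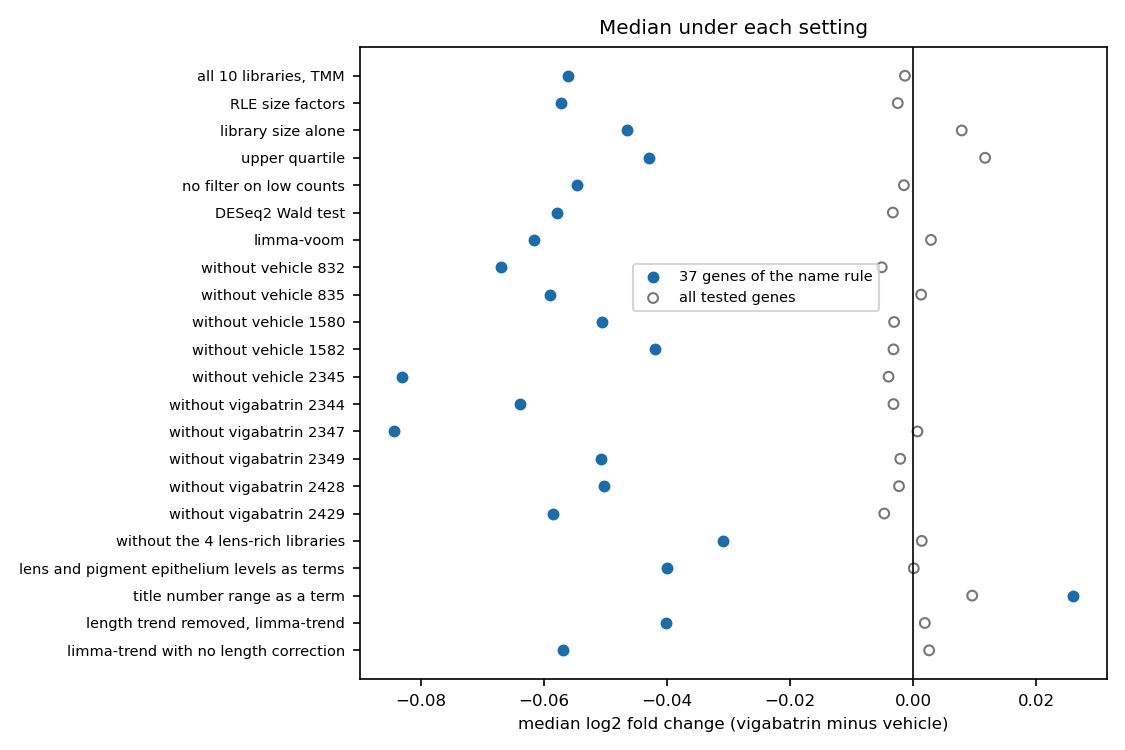
Median log2 fold change of the 37 genes (filled) and of all tested genes (open) under each setting. The members' median lies between -0.08 and -0.03 except in the fit with a term for title numbers, where it is 0.03; the medians of all genes lie between -0.005 and 0.01.

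The difference was smaller in several fits, among them those that took tissue other than retina or gene length into account. The median of the 37 genes was -0.04 with upper quartile scaling and also without vehicle 1582. Without the 4 lens-rich libraries, a fit that keeps vehicle 2345 and vigabatrin 2347, Ndufv2 and Ndufs3 had 0.03 and 0.009. The median was then -0.03, with 29 of 37 lower (49.4% of all genes). With the lens and pigment epithelium levels as terms it was -0.04, with 32 lower (50% of all genes). The members are short, with a median deposited length of 971 bases against 2922 for all tested genes; after each library's trend on gene length was removed, the median was -0.04, from -0.06 in the same model without the correction. Rod markers were also lower in 9 of 10 genes, with a median of -0.08, and their summed level was 56605 to 61835 CPM in vehicle and 55138 to 60512 CPM in the drug group. Pigment epithelium, cornea and blood markers, given above, were on the lower side as well, and cone markers in 4 of 6 genes. Other lists went the other way: lens markers were higher in 12 of 12 genes, skeletal muscle in 3 of 3 and ganglion cell in 5 of 6. Muller glia and amacrine markers were each higher in 3 of 5. Bipolar markers (3 lower, 3 higher) and endothelial markers (2 lower, 2 higher) were split. In all these lists 0 genes were called. The part of these tissues and of gene length in the difference was not tested.

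Of the 7 subunits encoded by mitochondrial DNA, 3 were lower and 4 higher, 0 passed, and the median was 0.02. The gene mt-Nd6, for a membrane subunit near the junction of the arms, measured 935 ± 73.6 CPM in vehicle and 1012 ± 115 CPM in the drug group (SD, n = 5 each); its fitted log2 change was 0.11 (SE 0.08, edgeR adjusted p = 0.797). The gene mt-Nd4l, which overlaps mt-Nd4, was at 2.22 ± 0.153 and 2.51 ± 0.403 CPM (0.17, SE 0.12, adjusted p = 0.805). A test of nuclear against mitochondrial subunits was not made. Of 15 assembly factors tested, 11 were lower and 4 higher, with 0 called and a median of -0.04. Ndufaf3, which helps to build the Q module, had -0.13 (SE 0.06, adjusted p = 0.666) and Timmdc1, needed for the membrane arm, 0.10 (SE 0.08, adjusted p = 0.816). Complex II, the other entry of electrons into the chain, had 3 of 4 genes lower and 0 called, with -0.08 for Sdhc (SE 0.04, adjusted p = 0.661) and -0.09 for Sdhd (SE 0.07, adjusted p = 0.824).

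Among 11 regulators of mitochondrial biogenesis 4 were lower and 7 higher, and 0 passed. The smallest p of the list was that of Ppargc1b, a coactivator that drives respiratory chain genes. It measured 74.9, 89.0, 75.9, 66.1 and 72.2 CPM in vehicle and 66.6, 62.3, 65.0, 62.3 and 59.3 CPM in the drug group. All vigabatrin libraries other than 2344 lay below all vehicle libraries, with 2344 above vehicle 1582 (log2 fold change -0.26, SE 0.07, unadjusted p = 0.0031, adjusted p = 0.489). Over all settings it ranged from -0.31 to -0.195. Gabpa, a subunit of GABP, had 0.10 (SE 0.06, adjusted p = 0.744).

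Of the genes with the name only, Ndufa4 had the highest level per length of the 37, at 226 ± 12.9 CPM per kb in vehicle, and measured 116, 105, 114, 118 and 105 CPM in vehicle and 99.8, 119, 104, 105 and 100 CPM in the drug group (log2 fold change -0.08, SE 0.06, adjusted p = 0.797). As for the subunits of complex I, vigabatrin 2347 was the highest of its group. Ndufa4l2 was the lowest of the 37 and was highest in the 4 lens-rich libraries; the part of lens tissue in its level was not tested. It measured 4.79 and 4.46 CPM in vehicle 835 and 1582 and 5.30 and 4.01 CPM in vigabatrin 2344 and 2429, against 1.44 to 2.17 CPM in the other 6. Its log2 fold change was 0.06 (SE 0.43, adjusted p = 0.989), leaving out single libraries gave -0.25 to 0.32, and the fit with a term for title numbers gave 0.95.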

How the data were processed

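The deposited table holds raw read counts per gene, which the authors made with HTSeq 0.6.1 on mm10, per the submitters' processing notes; DESeq2 and edgeR 3.16.5 appear there too. No aligner and no strand setting was found in the labels or headers. 1 column that matched no sample was not used. Columns were matched to samples by title number. The members and lists were chosen with earlier results of these data known.

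After the default low-count filter (filterByExpr) and TMM scaling, the quasi-likelihood test of edgeR 4.0.16 was run in R 4.3.3 over all 17435 genes left, with Benjamini-Hochberg adjustment at 0.05; all p-values are two-sided. The common biological coefficient of variation was 0.19 and the median standard error over all genes 0.09, on 36056135 to 54052502 counts per library. The code was tested on simulated data. Promoters were searched on both strands; the NRF1 motif allowed any base at 1 position and the YY1 motif allowed none. Genes named singly were the 8 members of smallest p, the 7 core subunits, Ndufa4, Ndufa4l2, the highest and lowest members per kilobase, and the 2 genes of smallest p from each further list. 1 of these genes is not reported here singly and is not drawn by name; it stays in the counts and medians. Alternatives were other scalings, no filter, DESeq2 1.42.0, limma 3.58.1 (voom and trend), each library left out, the 4 lens-rich libraries left out, tissue levels or title number range as terms, and removal of the length trend. The base of the length correction and the GENCODE transcript lengths were added after seeing the data.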

Additional observations from a re-analysis of the deposited data

Results flagged for a closer look

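The check covered 56 groups of 5 libraries, for the named genes and for the mean levels of the 4 modules and the assembly factors. In 5 groups, all of them for single genes, a library lay far from the others, where chance gives about 2.8. Vigabatrin 2347 was high for Ndufs5, at 39.6 CPM against 31.8 to 33.05 in the other 4 vigabatrin libraries. The same library was high for Ndufv2, at 58.0 CPM against 48.1 to 50.5, and for Ndufa4, at 119 CPM against 99.8 to 105. Vehicle 835, which is lens-rich, was high for Ndufs3, at 63.9 CPM against 56.6 to 57.9 in the other vehicle libraries. For the assembly factor Ndufaf3, vehicle 832 was low, at 17.7 CPM against 19.5 to 20.04.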

How the results depend on the processing

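No setting called a member. The median log2 fold change of the 37 genes was below 0 in every setting except the fit with a term for the title number range. There it was 0.026, with 13 of 37 lower (46.9% of all genes). That term also gave values above 0 for Ndufs7 (0.068), Ndufa10 (0.021), Ndufv2 (0.109), Ndufa4 (0.013) and Sdhd (0.013), and leaving out the 4 lens-rich libraries did so for Ndufs3 (0.009) and Ndufv2 (0.031). Ndufa4l2 was below 0 without vehicle 832 (-0.116), 1580 (-0.038) or 2345 (-0.096) and without vigabatrin 2344 (-0.249) or 2429 (-0.073), at most 0.323 with single libraries left out (without vehicle 835), and 0.949 with the title number term.

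The number of members with an unadjusted p under 0.05, 2 in the reported fit, was 1 with library size alone, upper quartile scaling, without the 4 lens-rich libraries, with lens and pigment epithelium levels as terms and with the length trend removed, and 1 to 7 with single libraries left out. No such number is given for the title number term, where vehicle 2345 alone serves as control. Over all genes, the share under 0.05 was counted in the reported fit alone. The genes called over the whole table, 1 in the reported fit, were 85 with DESeq2, 0 to 39 with single libraries left out (39 without vehicle 2345), and 0 with library size alone, no filter, limma-voom, limma-trend with or without the length correction, the lens-rich libraries left out, the tissue levels as terms or a term for title number range. The cause of these changes was not tested. No paired analysis was possible because the groups share no replicate numbers. Ndufa4l2, at 1.44 to 5.30 CPM, had the fewest counts of the members and the largest standard error, 0.43.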

Other observations

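For 4 of the 35 placed genes vehicle 2345 lay above the vehicle mean, against the 31 where it lay below; these genes were picked after their values were seen. Ndufa9, which helps to hold the junction of the arms, was at 55.9 CPM in vehicle 2345 and at 52.1 to 53.8 CPM in the other vehicle libraries. Ndufv1 was at 162 CPM there and Ndufs1 at 83.8 CPM. Ndufb2, the lowest placed gene per length, was at 27.5 CPM in vehicle 2345 and at 18.2 CPM in vehicle 835, the lowest of the 10 libraries; its exons overlap those of Braf by 146 bases and those of Gm16272 by 156 bases on the other strand, and those of Gm42420 by 145 bases on its own strand.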
